A study of Mus musculus with 6 samples.

Results

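The choroid plexus genes described here are Ttr, Kl, Folr1, Aqp1, Clic6, Otx2, Sostdc1, F5 and Slc4a5. They were taken by name, after gene identifiers had been matched to symbols, and all 9 were found among the 55471 genes of the table. RNA-seq was performed on total RNA from the hippocampus of 3 control and 3 p300-ifKO mice, one library per animal, single-end with reads of 50 bases. p300-ifKO (inducible, forebrain-restricted knockout) mice carry a floxed Ep300 allele and the Camk2a-creERT2 driver, so that tamoxifen (TMX) removes the lysine acetyltransferase function of p300 from forebrain excitatory neurons and leaves a truncated protein. Control animals were littermates that also received TMX. The treatment notes describe them as lacking the driver, although the short description of each control library names it. The mice were males of strain C57BL/6 in the labels and C57BL/6J in the study's methods, 3 to 6 months old, and received 5 intragastric administrations of TMX at 20 mg/ml in corn oil. The comparison asks whether transcripts of a tissue that lies against the hippocampus, and that the Camk2a driver is not meant to reach, differed between the genotypes, and how much they varied from mouse to mouse.

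The choroid plexus is a sheet of ciliated and microvillous epithelium that hangs in the brain ventricles and secretes most of the cerebrospinal fluid. It pumps sodium, chloride and bicarbonate into the ventricle and lets water follow, seals the barrier between blood and fluid, and delivers thyroxine, retinol and folate to the brain. The fimbria of the hippocampus borders the lateral ventricle and its plexus. Several of the 9 genes are not restricted to this epithelium in the adult brain. Kl is also made by hippocampal neurons, Aqp1 is found in other epithelia and in erythrocytes, and Sostdc1 and F5 are expressed in other organs.

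On the GRCm38 genome, Kl lies at chr5:150952607-150993817, Folr1 at chr7:101858331-101870788 and Aqp1 at chr6:55336432-55348555. Clic6 lies at chr16:92485736-92541243, Otx2 at chr14:48657677-48673819, Sostdc1 at chr12:36314139-36318452, F5 at chr1:164151838-164220277 and Slc4a5 at chr6:83219828-83304945. All are annotated as protein-coding, and reads were counted over their exons. Of the exonic bases, 3.98% overlapped other genes in Otx2 (Otx2os1 on the opposite strand and Gm49154 on the same strand) and 3.53% in F5 (Gm16548, opposite strand). The strand setting of the counting is not given in the sources used here, so reads of these stretches may belong to either gene. For the other 7 genes no exonic base overlapped another gene, and at most 0.63% of the 50-base exonic stretches, in Kl, occurred in the exons of another gene.

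Otx2 encodes the homeodomain transcription factor that choroid plexus epithelium needs for its development and upkeep, and homeodomain proteins bind DNA around a TAAT core. Because Otx2 is both a member of the set and a factor of this class, the letters TAAT were searched on both strands in the 250 bases before annotated starts (RefSeq, GRCm38.p6). Ttr was left out of this search, and windows were read for 5 of the 9 genes (Aqp1, F5, Kl, Otx2 and Slc4a5), with 8 windows in all. In 4 of these windows, 1 each for Aqp1, F5, Kl and Otx2, no base was annotated as exon. TAAT was found in 6 of the 8 windows, and in the Otx2 and Aqp1 windows of those 4, against 54.9% of 32851 promoter windows of the same length. The 8 windows were not independent, since all beyond 1 per gene were further starts of Otx2, and a pair of Otx2 windows overlapped. Every Otx2 window held TAAT, as did the single windows of Aqp1 and Slc4a5, while those of F5 and Kl did not. TAATCC, the longer form that Otx proteins prefer, was found in 1 of the 8 and in 0 of the 4, against 6.25% of all windows. The 1 was another Otx2 window, which held 10 TAAT matches and reached into annotated exon. Of the 4 windows without exon, the one with the most matches and the pair without any are printed below 5′ to 3′ on the strand of the gene, with TAAT or its complement ATTA in capitals (matches may overlap). They are chr14:48667645-48667894 (minus strand) for Otx2, chr1:164151585-164151834 (plus strand) for F5 and chr5:150952357-150952606 (plus strand) for Kl.
Otx2: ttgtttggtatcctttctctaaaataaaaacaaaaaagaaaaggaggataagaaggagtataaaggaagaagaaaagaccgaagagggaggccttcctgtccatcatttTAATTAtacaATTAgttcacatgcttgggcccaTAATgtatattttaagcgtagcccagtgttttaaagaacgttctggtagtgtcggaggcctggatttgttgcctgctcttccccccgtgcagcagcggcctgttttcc
F5: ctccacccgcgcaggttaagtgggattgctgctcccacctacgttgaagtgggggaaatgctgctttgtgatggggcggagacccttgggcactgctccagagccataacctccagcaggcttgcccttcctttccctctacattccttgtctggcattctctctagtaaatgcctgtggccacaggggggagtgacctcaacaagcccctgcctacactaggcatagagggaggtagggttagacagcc
Kl: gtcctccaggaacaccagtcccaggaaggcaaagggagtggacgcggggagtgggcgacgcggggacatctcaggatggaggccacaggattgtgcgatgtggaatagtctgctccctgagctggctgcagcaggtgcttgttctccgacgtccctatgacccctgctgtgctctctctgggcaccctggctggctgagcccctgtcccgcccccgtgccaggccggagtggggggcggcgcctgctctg
The Otx2 window held 4 matches and had a GC content of 42.0%, and the F5 and Kl windows had none and GC contents of 57.2% and 66.8%. A match of letters is not a binding site, and no factor binding was measured here.

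The libraries held between 23151568 and 28433823 reads assigned to genes. Ep300 had normalized counts (counts divided by the DESeq2 size factor of the library) of 1474 to 2334 in control and 478 to 1350 in p300-ifKO mice, with no overlap between the groups, a log2 fold change of −0.97 (SE 0.33) and a DESeq2 adjusted p of 0.991. Esr1, part of whose sequence is carried by the creERT2 transgene, had 87.2 to 109 normalized counts in control and 2416 to 4217 in p300-ifKO mice (log2 fold change 4.96, adjusted p = 4.47e-92). Esr1 and Arsi (2.56, adjusted p = 2.98e-17) were the only genes that passed an adjusted p of 0.05 in the DESeq2 fit of all genes. Markers of the labelled tissue were high in every library, with Camk2a at 89722 to 115980 and the dentate granule cell gene Prox1 at 1604 to 2883 normalized counts. Across genes, the deviation of a library from the mean was related to exonic length in a way that differed between libraries, with a Spearman rho between −0.504 and 0.417. With an offset for that trend, Sostdc1 was the only one of the 9 genes whose fold change took the other sign.

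All 9 choroid plexus genes were detected in all 6 libraries, and none passed the test between genotypes. In the DESeq2 fit across all genes (Wald test, Benjamini-Hochberg adjustment over 32773 genes), 0 of 9 were called at an adjusted p of 0.05, where 0.0061% of all genes tested were. At an unadjusted p of 0.05 the count was also 0 of 9, against 1.32% of all genes, and edgeR and limma-voom, whose filter removed Slc4a5, likewise gave 0 of the other 8 at either threshold. The p300-ifKO mean was the higher for 7 genes and the lower for 2, whereas 45.3% of all genes had a fold change above 0. The median log2 fold change of the 9 was 0.12, beside −0.046 over all genes tested. For none of the 9 were the 3 p300-ifKO mice all above or all below the 3 control mice, against 3.21% and 3.42% of all genes. Within the control group alone the ratio of the highest to the lowest mouse ran from 1.23 for Sostdc1 to 23.8 for Ttr, and within the p300-ifKO group from 1.45 to 5.43 for the same genes. In bulk tissue, fewer choroid plexus cells and less RNA per cell cannot be told apart.

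**Figure D1:**
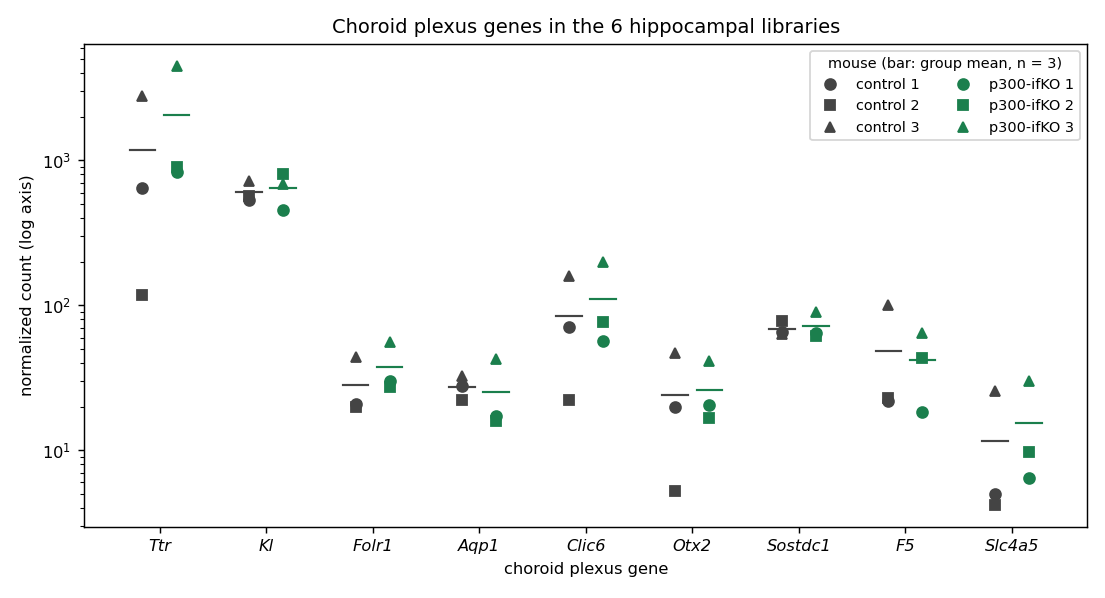
Normalized counts (log axis) of the 9 choroid plexus genes, 1 point per mouse, with a bar at the mean of each group of 3. For Ttr the points spread from 118 to 4488, control mouse 3 and p300-ifKO mouse 3 sit at the top of most columns, and the groups overlap for every gene.

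Ttr and Folr1 serve the delivery of hormones and vitamins. Ttr (chromosome 18, 20665280 to 20674321) encodes transthyretin, which carries thyroxine and, with retinol-binding protein, retinol, and is the most abundant secreted product of this epithelium. Ttr had normalized counts of 646, 118 and 2804 in control mice 1, 2 and 3, and of 827, 908 and 4488 in p300-ifKO mice 1, 2 and 3. Control mouse 2 was the lowest of the 6, mouse 3 of either genotype stood far above the rest, and the groups overlapped. The means were 1189 ± 1423 in control and 2074 ± 2091 in p300-ifKO mice (SD, n = 3 each), and the log2 fold change was 0.80 (SE 1.29, 95% interval −1.72 to 3.33, DESeq2 adjusted p = 0.991). A spread of this size leaves a 95% interval that covers both a several-fold decrease and a several-fold increase. The highest library had 38.1 times the normalized count of the lowest (95% interval of the ratio 31.6 to 46.4, exact, for counting error only). Among control mice alone the ratio was 23.8, and among p300-ifKO mice 5.43. By its SD of log2 normalized counts over the 6 libraries (1.83), Ttr ranked 8 of the 13614 genes with a mean of at least 50, whose median SD was 0.19. The share of Ttr in a sum over the 9 genes thus differed widely between libraries: Ttr supplied 13.7% of their reads in control mouse 2 and 78.8% in p300-ifKO mouse 3.

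Folr1 encodes folate receptor alpha, through which the plexus moves folate from blood into the fluid. Its normalized counts were 20.9, 20.0 and 43.9 in controls and 30.1, 27.4 and 55.9 in the p300-ifKO group, in the order of mice 1, 2 and 3 that is kept from here on. Mouse 3 was again the highest in each group, and the ranges overlapped. At 28.2 ± 13.6 against 37.8 ± 15.8 (SD, n = 3 each), the log2 fold change was 0.42 (SE 0.48, 95% interval −0.51 to 1.35, DESeq2 adjusted p = 0.991). The highest library exceeded the lowest 2.80-fold (95% interval 1.64 to 4.98), on 19 to 58 reads per library.

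Aqp1, Slc4a5 and Clic6 belong to families that move water, bicarbonate or chloride, and Kl acts in mineral balance. Aqp1 encodes the water channel of the apical membrane. Its normalized counts were 27.8, 22.1 and 32.7 in control animals versus 17.2, 15.9 and 42.4 in p300-ifKOs. The p300-ifKO group held both the lowest pair and the highest value, so that the control range lay inside it. The log2 fold change was −0.13 (SE 0.50, 95% interval −1.10 to 0.85, DESeq2 adjusted p = 0.991), from means of 27.5 ± 5.30 and 25.2 ± 15.0 (SD, n = 3 each).

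Slc4a5 encodes NBCe2, an electrogenic sodium bicarbonate cotransporter of the apical membrane. It had the fewest reads of the set, 4 to 31 per library, and normalized counts of 4.97, 4.20 and 25.5 in controls and 6.44, 9.72 and 29.9 in the p300-ifKO group. In both groups mouse 3 was well above mice 1 and 2, and the ranges overlapped. With means of 11.6 ± 12.1 and 15.4 ± 12.7 (SD, n = 3 each), the log2 fold change was 0.41 (SE 0.86, 95% interval −1.28 to 2.10, DESeq2 adjusted p = 0.991). Its highest value was 7.11 times its lowest, but at such counts the 95% interval ran from 2.52 to 27.7.

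Clic6 encodes a member of the chloride intracellular channel family that is abundant in secretory epithelia. Normalized counts were 70.6, 22.1 and 160.2 in control animals versus 56.9, 76.9 and 197.7 in p300-ifKOs. As for Ttr, control mouse 2 was lowest and mouse 3 of each genotype highest, and the groups overlapped. The ratio of highest to lowest was 8.96 (95% interval 5.71 to 14.8), and the log2 fold change 0.39 (SE 0.90, 95% interval −1.36 to 2.15, DESeq2 adjusted p = 0.991) came from means of 84.3 ± 70.1 and 110.5 ± 76.2 (SD, n = 3 each). Its SD of 1.11 on the log2 scale ranked 49 of the same 13614 genes.

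Kl encodes alpha-Klotho, a coreceptor for fibroblast growth factor 23 that is also shed as a soluble protein and that takes part in calcium and phosphate balance. It had 530.0, 566 and 722 normalized counts in controls and 454, 801 and 684 in the p300-ifKO group. Here p300-ifKO mouse 2 was the highest and p300-ifKO mouse 1 the lowest, with the control mice between them. The highest exceeded the lowest 1.76-fold (95% interval 1.57 to 1.98), far less than for Ttr although the counts of control mouse 2 were larger for Kl than for Ttr. Means were 606 ± 102 and 647 ± 177 (SD, n = 3 each), with a log2 fold change of 0.09 (SE 0.24, 95% interval −0.37 to 0.56, DESeq2 adjusted p = 0.991).

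Otx2, the transcription factor introduced above, had normalized counts of 19.9, 5.25 and 46.9 in control animals versus 20.4, 16.8 and 41.5 in p300-ifKOs. Control mouse 2 was the lowest, on 5 reads, mouse 3 of each genotype was the highest, and the p300-ifKO range lay inside that of the controls. Means of 24.0 ± 21.2 and 26.2 ± 13.3 (SD, n = 3 each) gave a log2 fold change of 0.12 (SE 0.70, 95% interval −1.24 to 1.49, DESeq2 adjusted p = 0.996). The ratio of highest to lowest was 8.94, with a 95% interval of 3.56 to 28.8.

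Sostdc1 and F5 encode secreted proteins. Sostdc1 (also called ectodin or wise) is an antagonist of bone morphogenetic proteins and a modulator of Wnt signalling. Its normalized counts were 65.6, 77.7 and 63.3 in controls and 64.4, 61.9 and 89.7 in the p300-ifKO group. The 6 values lay close together, the groups overlapped, and control mouse 3 was next to the lowest. It was the steadiest of the 9 genes, with a highest value 1.45 times the lowest (95% interval 1.05 to 2.01) and a log2 fold change of 0.064 (SE 0.28, 95% interval −0.48 to 0.61, DESeq2 adjusted p = 0.991) from means of 68.9 ± 7.77 and 72.0 ± 15.4 (SD, n = 3 each).

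F5 encodes coagulation factor V, the cofactor of activated factor X. Normalized counts were 21.9, 23.1 and 100.01 in control animals versus 18.3, 43.3 and 64.6 in p300-ifKOs. Control mouse 3 was the highest, p300-ifKO mouse 1 the lowest, and the p300-ifKO range lay partly inside that of the controls. The log2 fold change was −0.20 (SE 0.64, 95% interval −1.45 to 1.06, DESeq2 adjusted p = 0.991), with means of 48.3 ± 44.8 and 42.1 ± 23.2 (SD, n = 3 each) and a ratio of highest to lowest of 5.48 (95% interval 3.25 to 9.78).

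**Figure D2:**
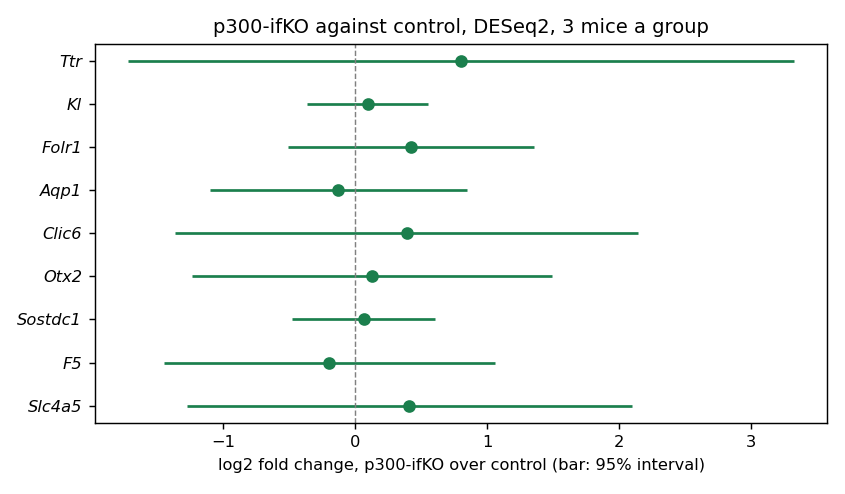
Log2 fold change of p300-ifKO over control for each choroid plexus gene (DESeq2, 3 mice a group), with bars for the 95% interval. All 9 intervals include 0, and they are widest for Ttr, Clic6 and Slc4a5 and narrowest for Kl and Sostdc1.

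To compare levels between genes, normalized counts were divided by the exonic length in kilobases. The mean over the 6 libraries was 1376 per kb for Ttr, followed by 67.2 for Kl, 39.5 for Sostdc1, 24.9 for Clic6, 14.4 for Folr1, 10.03 for Aqp1, 6.08 for F5, 5.95 for Otx2 and 2.32 for Slc4a5. Ttr led in every library, but by very different margins, since its level per kb ran from 99.2 to 3784 while that of Kl ran only from 48.7 to 85.9. Neighbours in this order overlapped in their ranges over the 6 libraries, except Ttr and Kl. Sostdc1 ran from 34.7 to 50.4 per kb and Clic6 from 5.64 to 50.5. Folr1 ran from 8.69 to 24.4, Aqp1 from 6.05 to 16.2, F5 from 2.46 to 13.5, Otx2 from 1.24 to 11.1 and Slc4a5 from 0.72 to 5.15. The proportions among the genes were therefore not constant. For each 1000 Ttr reads there were 4813 Kl reads in control mouse 2 and 152 in p300-ifKO mouse 3, whereas Slc4a5 had 7.69, 35.7 and 9.10 reads per 1000 of Ttr in controls and 7.79, 10.7 and 6.66 in the p300-ifKO group.

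The libraries fell into an order that most of the genes shared. Control mouse 3 and p300-ifKO mouse 3 were the top pair for 7 of the 9 genes, all but Kl and Sostdc1, which was the case for 3.19% of the 17071 genes with a mean normalized count of at least 10. p300-ifKO mouse 3 was the highest library for 6 of the 9 (6.83% of those genes) and control mouse 3 for 2 (21.9%). Control mouse 2 was the lowest for 5 (9.69%). Summed over the 9 genes, normalized counts in control mice were 1408, 858 and 3999, and those in p300-ifKO mice were 1495, 1961 and 5694. Each group thus contained 1 library that was well above its other pair, and the groups overlapped. Without control mouse 3 the Ttr log2 fold change was 2.45 and the median of the 9 genes 0.91, and without p300-ifKO mouse 3 they were −0.45 and −0.37. With any library left out, no gene of the 9 that had an adjusted p passed 0.05. Without p300-ifKO mouse 2 only Ttr and Kl had one, and the other 7 could not be called. At an unadjusted p of 0.05, leaving out control mouse 3 gave 2 of the 9 (Ttr and Clic6), against 0.332% of all genes, and a fit with 1 surrogate variable gave 1 (Kl), against 0.659%. Control mouse 3 was the highest control for both Ttr and Clic6, so leaving it out raises their fold change by construction. Ttr and Clic6 also varied together over the mice, so they do not count as separate results.

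Covariation was measured against Ttr, over the log2(normalized count + 1) of the 6 mice. Pearson's r was 0.99 for Clic6 (exact permutation p = 0.00417, 0.0167 after Benjamini-Hochberg adjustment over the 8 correlations computed) and 0.97 for Otx2 (exact p = 0.0153, adjusted 0.0306). It was 0.91 for Folr1 (exact p = 0.00972, adjusted 0.0259) and 0.91 for Slc4a5 (exact p = 0.00139, the smallest that the 720 pairings can give, adjusted 0.0111). These 4 of 8 genes had an r of at least 0.8, as did 1.24% of the 17070 other genes with a mean normalized count of at least 10. F5 had an r of 0.74 (exact p = 0.0903, adjusted 0.144), Aqp1 of 0.58 (exact p = 0.221, adjusted 0.294), Kl of 0.44 (exact p = 0.390, adjusted 0.446) and Sostdc1 of 0.11 (exact p = 0.831, adjusted 0.831). The relation with Ttr thus passed the test for Clic6, Otx2, Folr1 and Slc4a5 and missed it for the other 4, and the difference between those r values was not tested. Mouse 3 of each genotype had 2804 and 4488 normalized counts of Ttr, against 118 to 908 in the other mice. The 4 high r values depended largely on these high libraries, and for Clic6 and Otx2 also on control mouse 2. Within the lower mice alone the relation was not tested.

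By ranks, Spearman's rho with Ttr was 1.0 for Slc4a5 (exact p = 0.00278, adjusted 0.0222), 0.94 for both Clic6 and Folr1 (exact p = 0.0167, adjusted 0.0444) and 0.77 for Otx2 (exact p = 0.103, adjusted 0.206), so that Otx2 did not pass on ranks. The others gave 0.71 for F5 (exact p = 0.136), 0.54 for Kl (exact p = 0.297), 0.49 for Aqp1 (exact p = 0.356) and −0.086 for Sostdc1 (exact p = 0.919). Control mouse 2 and p300-ifKO mouse 3 were the libraries farthest from the median of Ttr. Without them, over 4 mice, r was 0.94 for Clic6, 0.93 for Otx2, 0.94 for Folr1, 0.98 for Slc4a5, 0.92 for F5, 0.55 for Aqp1, 0.51 for Kl and −0.40 for Sostdc1. Of those 4 mice, control mouse 3 had 2804 normalized counts of Ttr and the others 646 to 908. The high values of r over 4 mice thus rest mainly on control mouse 3. With the mean of each genotype removed, r was 0.99, 0.98, 0.90 and 0.91 for Clic6, Otx2, Folr1 and Slc4a5, 0.81 for F5, 0.77 for Aqp1, 0.43 for Kl and 0.061 for Sostdc1. No batch is given in the labels. The levels did not scale in equal proportion: for each doubling of Ttr, the fitted slope was 0.60 log2 units for Clic6, 0.56 for Otx2, 0.55 for Slc4a5, 0.39 for F5, 0.28 for Folr1, 0.17 for Aqp1, 0.074 for Kl and 0.012 for Sostdc1.

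Among all 36 pairs of the 9 genes the median r was 0.64, with 12 pairs at 0.8 or above and 1 below 0. The highest was that of Ttr and Clic6, and the lowest, −0.030, that of Otx2 and Sostdc1. Clic6 and Otx2 were correlated at 0.97 and Folr1 and Slc4a5 at 0.96. F5 went most closely with Slc4a5 (0.92), and its r with Kl was 0.81. These values describe 6 shared libraries, and pairs that share a gene are not independent.

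**Figure D3:**
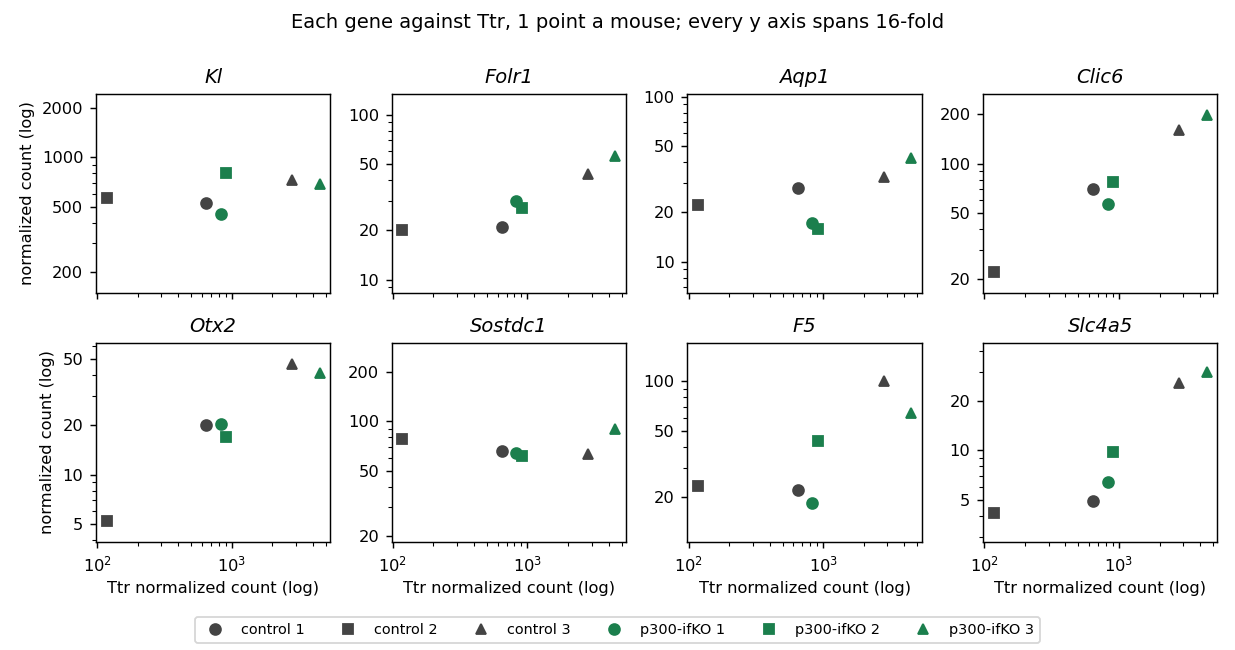
Normalized counts of each other choroid plexus gene (y, log axis spanning 16-fold in every panel) against those of Ttr (x, log axis), 1 point per mouse. Clic6, Otx2, Folr1 and Slc4a5 climb with Ttr from control mouse 2 to mouse 3 of both genotypes, whereas Kl and Sostdc1 stay nearly level.

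A wider list of 32 genes known from choroid plexus epithelium had median log2 deviations of 0.42 in control mouse 3 and 0.33 in p300-ifKO mouse 3, smaller than the 1.03 and 0.84 of the 9 genes, and between −0.28 and −0.033 in the other libraries. None of the 32 passed the DESeq2 test at an adjusted p of 0.05. The fold change was above 0 for 17 and below 0 for 15, with a median of 0.0093 on the log2 scale. Of the 27 with a mean of at least 10 normalized counts, control mouse 3 and p300-ifKO mouse 3 were the top pair for 14, beside 3.19% of genes as above. Among the same 27, 8 had an r with Ttr of at least 0.8. The most abundant was Enpp2 (autotaxin, which makes lysophosphatidic acid and is also made by oligodendrocytes). Its normalized counts were 4147, 3744 and 6158 in control animals versus 4506, 4555 and 6326 in p300-ifKOs, with an r with Ttr of 0.94 and a log2 fold change of 0.13 (SE 0.23). The order of mice was the same as that of Ttr, on a much narrower range.

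Next in abundance were Car12, Htr2c, Slc29a4, Cab39l and Spint2, all of which had an r with Ttr under 0.8. Car12 (carbonic anhydrase 12) was at 1190, 1178 and 1235 in controls and 858, 1037 and 1044 in the p300-ifKO group. The groups did not overlap, but the log2 fold change of −0.29 (SE 0.13) had an unadjusted p of 0.0294 and a DESeq2 adjusted p of 0.991. Htr2c, the serotonin 2C receptor, which hippocampal neurons also express, was at 1340, 1052 and 1286 in control animals versus 512, 1075 and 992 in p300-ifKOs. Control mouse 2 lay below p300-ifKO mouse 2, and the log2 fold change was −0.51 (SE 0.27, DESeq2 adjusted p = 0.991). The correlation with Ttr was −0.11 for Car12, 0.060 for Htr2c, −0.15 for Slc29a4 (a monoamine transporter), 0.76 for Cab39l (a scaffold of the LKB1 kinase complex) and 0.20 for Spint2 (a protease inhibitor). Chosen after their values were seen, Kcne2 (a potassium channel subunit of the apical membrane) had an r with Ttr of 0.98, the homeobox gene Msx1 of 0.97 and Ace (angiotensin-converting enzyme) of 0.95.

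Many of the genes that do the same work as the 9, or act with them, are also expressed by neurons and glia. Of 16 genes for the pumps, cotransporters and carbonic anhydrases of fluid secretion, 0 were called, 5 had a fold change above 0 and 11 below, and the median was −0.098. An r with Ttr of at least 0.8 was found for 1 of the 16. Of 42 binding partners, receptors and relatives of the 9 (retinol and thyroid hormone carriers, folate transporters and enzymes, Klotho coreceptors, Wnt and bone morphogenetic protein components, coagulation factors, Otx and Clic relatives), 41 had an adjusted p and 0 were called. Fold changes were above 0 for 12 and below for 29, with a median of −0.12, and 1 of the 35 with a mean of at least 10 had an r with Ttr of at least 0.8. Without p300-ifKO mouse 2, 2 genes of the wider list (Htr2c and Spint2), 1 of the secretion genes (Slc4a4) and 2 of the partners (Thrb and Lrp4) passed, where DESeq2 then called 951 of 10912 genes. Of the 9 choroid plexus genes, Ttr (adjusted p = 0.609) and Kl (adjusted p = 0.799) had an adjusted p in that fit and did not pass, and the other 7 had none.

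Markers of tissues next to the plexus were read in the same libraries. For 10 genes of ependyma, the ciliated lining of the ventricle, summed normalized counts were 641, 735 and 1034 in controls and 1166, 732 and 939 in the p300-ifKO group. p300-ifKO mouse 1 was the highest for 7 of the 10, but the share of all genes highest in that library was not computed. It was also the library with the strongest trend in exonic length (rho −0.504). The fold change was above 0 for 9, beside 45.3% of all genes, and below for 1 (median 0.32, 0 called). None had an r with Ttr of at least 0.8, and no marker was at 0 in any library. Foxj1, the master regulator of motile cilia and the most abundant of them, was at 147, 157 and 263 in control animals versus 224, 181 and 204 in p300-ifKOs. For 10 meningeal fibroblast genes the sums were 3547, 2557 and 4571 in controls and 1891, 2542 and 3021 in the p300-ifKO group. All 10 were highest in control mouse 3, beside 21.9% of genes with a mean of at least 10, and had a fold change below 0 (median −0.44, 0 called). Dcn (decorin), the most abundant, was at 2489, 1785 and 2562 against 1074, 1652 and 1917, with an unadjusted p of 0.0192 and a DESeq2 adjusted p of 0.991. Their median log2 deviation from the mean of the 6 libraries was 1.01 in control mouse 3 and 0.025 in p300-ifKO mouse 3, where that of the 9 choroid plexus genes was 1.03 and 0.84. Control mouse 3 and p300-ifKO mouse 3 were the top pair for 4 of the 10 meningeal genes, beside 3.19% of genes as above, and for 2 of the 10 ependymal genes. An r with Ttr of at least 0.8 was found for 1 meningeal gene, Slc22a6 (0.82). The part of these neighbouring tissues in the levels of the 9 genes was not tested.

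**Figure D4:**
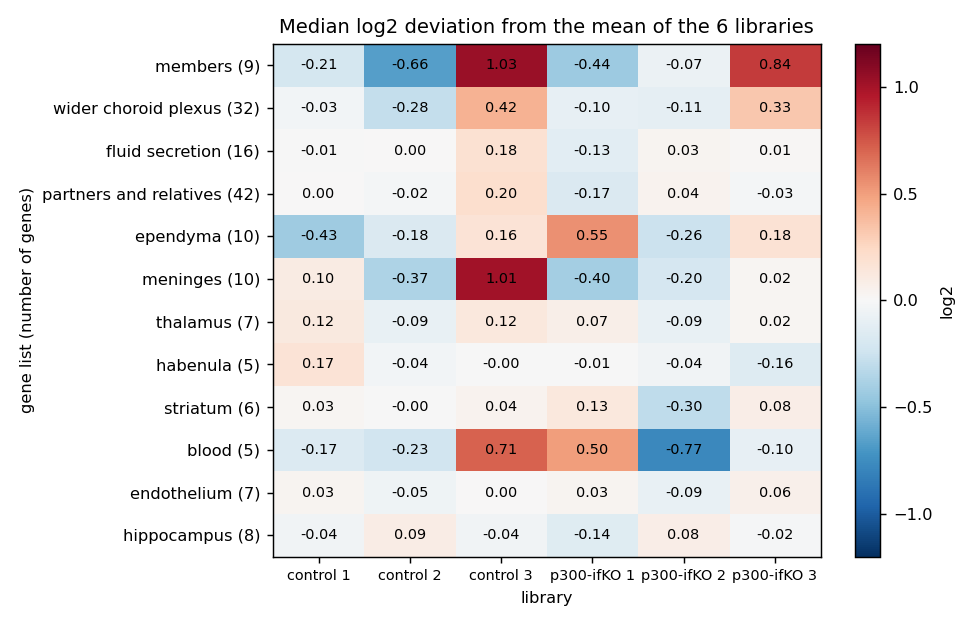
Median log2 deviation of each gene list (rows, number of genes in parentheses) from its mean over the 6 libraries (columns), printed in each cell and shown in colour. The choroid plexus genes are at 1.03 in control mouse 3 and 0.84 in p300-ifKO mouse 3, meningeal genes at 1.01 and 0.025, and hippocampal genes within 0.15 of 0 throughout.

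Markers of other neighbouring regions varied less between libraries. The summed normalized counts of 7 thalamic genes ran from 1855 to 2339, of 5 habenular genes from 749.7 to 1139 and of 6 striatal genes from 1423 to 2134. The most abundant gene of each was Prkcd (520.0 to 824), Nwd2 (519 to 964) and Ppp1r1b (864 to 1427). Endothelial genes ran from 7814 to 8354 in sum and hippocampal genes from 104880 to 135070. None of these lists had a gene that passed the test or that had an r with Ttr of at least 0.8, and their median log2 fold changes were −0.081, −0.16, −0.19, 0.0076 and −0.015. The 5 haemoglobin and haem synthesis genes, as blood markers, were highest in control mouse 3 (sum 4064) and next in p300-ifKO mouse 1 (3579), and ran from 1431 to 2292 in the other 4 libraries.

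The genes outside the set whose pattern was most like that of the 9 were found by the Pearson r with the mean deviation of the 9 genes over the 6 libraries, among 575 genes with a mean normalized count of at least 50 and an SD of log2 of at least 0.479. Among the 10 highest were Pnpla3 (r = 0.96), Slc22a6 (0.90), 1500015O10Rik (0.89), Prg4 (0.88), Zic4 (0.88), Slc13a4 (0.86), Sema3b (0.85), Col1a2 (0.84) and Rn7sk (0.83). Of these, 1500015O10Rik (augurin) and Slc13a4 (a sulfate transporter) belong to the wider choroid plexus list and Slc22a6 (an organic anion transporter) and Col1a2 (a collagen chain) to the meningeal list. Pnpla3, a lipase of lipid droplets, was at 44.7, 32.6 and 92.9 normalized counts in control animals versus 51.6, 57.4 and 78.1 in p300-ifKOs. Its highest libraries were mouse 3 of each genotype, and the groups overlapped.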

How the data were processed

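Hippocampal RNA-seq libraries of 3 control and 3 p300-ifKO mice were analysed from a table of read counts per gene deposited by the authors, with the exonic length of each gene as the other deposited value. Per the submitters' notes and the study's methods, the authors used FastQC 0.11.8, Trim Galore 0.6.4 and STAR 2.6.1 on GRCm38 (mm10), dropped reads of low mapping quality, counted over exons with Rsubread and an Ensembl annotation, and ran DESeq2 1.30.1. Counts were not normalized. Of 55471 gene identifiers, 55144 (99.41%) matched a symbol.

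Counts were fitted here with DESeq2 1.42.0 in R 4.3.3 (median-of-ratios size factors, two-sided Wald test, default Cook and independent filters, all 6 libraries, no covariate), with Benjamini-Hochberg adjustment over all genes with an adjusted p and a threshold of 0.05. DESeq2 is the tool of the study, and edgeR's quasi-likelihood test (4.0.16) and limma-voom (3.58.1) were alternatives, with TMM factors, count filters, the filters of DESeq2 switched off, a threshold of 0.1, a replicate block, 1 surrogate variable (sva 3.50.0), a smooth offset in exonic length (mgcv 1.9.3) and each library left out in turn. Fits were tested on simulated data. Correlations used log2(normalized count + 1), with two-sided exact permutation tests over 720 pairings (scipy 1.17.1). Ratios of 2 libraries have exact 95% binomial intervals, which cover counting error only, since reads are not independent molecules. Libraries held 23151568 to 28433823 counts, and each came from a different mouse.

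The 9 genes, and the lists beside them, were chosen with earlier results of these data known. Named genes are the 9, the 6 most abundant of the wider choroid plexus list, the most abundant of the ependymal, meningeal, thalamic, habenular and striatal lists, any list gene with an adjusted p under 0.05, Ep300, Esr1 and Arsi as a check of labels, and the 10 most alike in pattern, of which 1 is not reported here. Other genes were named after their values were seen. Promoter sequence came from RefSeq (GRCm38.p6) and gene positions from GENCODE on GRCm38.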

Additional observations from a re-analysis of the deposited data

How the results depend on the processing

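None of the 9 genes that had an adjusted p was called in any of the 17 alternatives, and the lowest was 0.609 (Ttr, without p300-ifKO mouse 2). In that fit only Ttr and Kl had an adjusted p, and the other 7 could not be called. The median log2 fold change was 0.11 with edgeR and 0.26 with limma-voom, each over the 8 genes other than Slc4a5. Over the 9 genes it was 0.12 to 0.23 with TMM factors, count filters or the length offset. It was 0.63 with 1 surrogate variable, and −0.37 to 0.91 with 1 library left out. Of 97 values with all libraries, 94 kept their sign, and the others were F5 with limma-voom (0.041) and with 1 surrogate variable (0.71) and Sostdc1 with the length offset (−0.038). The 97 include the fits with a DESeq2 filter switched off and the threshold of 0.1. These leave the fold change as it is, so their values could not change sign. Slc4a5 had too few reads for the filter of edgeR and limma-voom and got no value there.

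Of the 54 values with 1 library left out, 13 changed sign. The ranges were −0.45 to 2.45 for Ttr, −0.087 to 0.29 for Kl, 0.024 to 0.89 for Folr1, −0.74 to 0.12 for Aqp1, −0.33 to 1.26 for Clic6, −0.37 to 1.06 for Otx2, −0.12 to 0.17 for Sostdc1, −0.65 to 0.91 for F5 and −0.51 to 1.75 for Slc4a5. Lists other than the 9 had 0 genes called, except without p300-ifKO mouse 2, where 2 of the wider choroid plexus list, 2 partners and 1 each of the secretion, habenula (Nwd2), endothelium (Cldn5) and hippocampus (Zbtb20) lists passed. The r of Sostdc1 with Ttr was −0.40 without the 2 libraries farthest in Ttr, and the other 7 kept their sign under every alternative.

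The labels do not say whether mice with the same number share anything else. In the submitters' library names, both mouse 3 libraries bear the same original number, which is not 3. Deviations of same-numbered mice correlated at 0.365, −0.371 and 0.158 for numbers 1, 2 and 3. What such mice have in common was not tested. A fit with the replicate number as a block gave 0 called genes among the 9 and a median of 0.41.

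Reads were fewest for Slc4a5, Otx2, Aqp1, F5 and Folr1, with as few as 4, 5, 16, 17 and 19 in a library, which sets the width of their counting intervals. Ttr had 112 to 4654 reads. The interval of its fold change between genotypes, unlike its counting interval, was nonetheless the widest of the 9. Causes of these changes were not tested.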
